A study of Mus musculus with 8 samples.

Results

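The genes for 9 laminin chains were followed in Min6, a beta cell line from a mouse insulinoma, after transfection with a plasmid for Zac1, a zinc finger transcription factor. The chains were chosen by gene symbol: the α chains Lama1, Lama2, Lama3, Lama4 and Lama5, the β chains Lamb1, Lamb2 and Lamb3, and the γ chain Lamc1. All 9 were found among the 23100 genes of the count table. The series asked which genes Zac1 regulates. Lipofectamine delivered pRK5-Zac1 to 4 cultures and, as the negative control, pRK5-NLSeGFP, which codes for a nuclear-localised green fluorescent protein, to 4 others, and RNA was taken 16 h later. Libraries are numbered 1, 2, 3 and 5 in both groups. All 8 share the Min6 line and the transfection. The share of cells that took up plasmid is not given in the sources used here, so every value is an average over cells with and without it. In such bulk RNA, fewer cells of a kind and less RNA per cell cannot be told apart.

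Laminins are the large glycoproteins on which basement membranes, the sheets of matrix beneath epithelia and around vessels, are built. Each laminin is a trimer of an α, a β and a γ chain joined through a coiled coil, and it is named by its chains, so that laminin-511 holds α5, β1 and γ1. The α chain carries the globular domains that integrins and dystroglycan bind, and the short arms of the chains join trimers into a network. In the pancreatic islet, beta cells are known to rest on the basement membrane of the islet capillaries, whose laminins contain α4 and α5 and come largely from endothelial cells.

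The control libraries held 30.5 to 35.0 M (mega) counts in total and the Zac1 libraries 34.7 to 42.4 M. Plagl1, the gene for Zac1, stood at 77.8 ± 7.38 CPM (counts per M counts, mean ± SD, n = 4) in the controls and at 4631 ± 778 CPM with Zac1, plasmid and endogenous transcripts together (edgeR adjusted p = 1.45e-09). The beta cell markers fitted the label: all 11 were measurable, none was called between groups, and their summed level was 57694 to 74204 CPM in the controls and 60161 to 67416 CPM with Zac1. Of 8 endothelial markers 2 could be tested, with a sum of 13.4 to 16.4 CPM in the controls and 14.1 to 15.7 CPM with Zac1. Most of that sum was Esam (12.9 ± 1.41 CPM in the controls), and the defining Cdh5 had 0 counts in all libraries. The 8 fibroblast or stellate cell markers summed to at most 2.42 CPM in any library, with Lum at 0. The 8 duct or acinar markers summed to 143 to 181 CPM in the controls and 122 to 171 CPM with Zac1, nearly all of it Krt7, with Prss1 and Amy2a5 at 0. Of the Schwann cell markers, Mag was called higher with Zac1, and the sum of the 6 was 5.59 to 7.36 CPM in the controls and 9.88 to 10.7 CPM with Zac1, while Sox10 stayed at or below 0.0835 CPM on average.

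Laminin mRNA was scarce in Min6 cells, and 1 chain stood far above the others. To compare chains of different size, CPM was divided by exon length in kb. Lamc1, which codes for the γ1 chain shared by most laminins, led at 1.81 ± 0.171 CPM per kb in the control libraries (n = 4). Even so, only 26.5% of the 14188 tested genes with a known length lay below it, and the median of those genes was 6.98 CPM per kb. Lama5 came next at 0.602 ± 0.0710 CPM per kb. Its range in the controls, 0.497 to 0.651, did not touch that of Lamc1, 1.60 to 1.98.

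Lama1, Lama4 and Lamb1 formed a group of similar level. Lama1 codes for the α chain of the early embryonic basement membrane and stood at 0.368 ± 0.0632 CPM per kb. Lama4, the vascular α4 chain, stood at 0.318 ± 0.110 CPM per kb, and Lamb1, the common β1 chain, at 0.312 ± 0.0523 CPM per kb. The ranges of neighbours in this order overlapped, so these 3 chains could not be ranked. All 3 lay below Lama5 in every control library.

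The remaining 4 chains had few reads. Lama3, the α chain of epithelial anchoring laminin, had 0.0704 ± 0.0124 CPM per kb. It has a long and a short coding form, and over the short one alone (5172 nt) the same reads would give 0.146 CPM per kb. Lamb3, its partner in skin, had 0.0392 ± 0.0231 CPM per kb, Lamb2, the β2 chain of synapse and kidney basement membranes, 0.0323 ± 0.0120, and Lama2, the α2 chain of muscle and nerve, 0.0223 ± 0.0158. The last 3 overlapped one another in range, and the highest library of Lamb3 reached the lowest of Lama3. These 3 held 24 to 29 counts each over all 4 control libraries. Exons of Lama2 and Lama3 overlap gene models on the opposite strand, and the strand setting of the counting is not given in the sources used here, so a part of their few reads is uncertain.

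**Figure D1:**
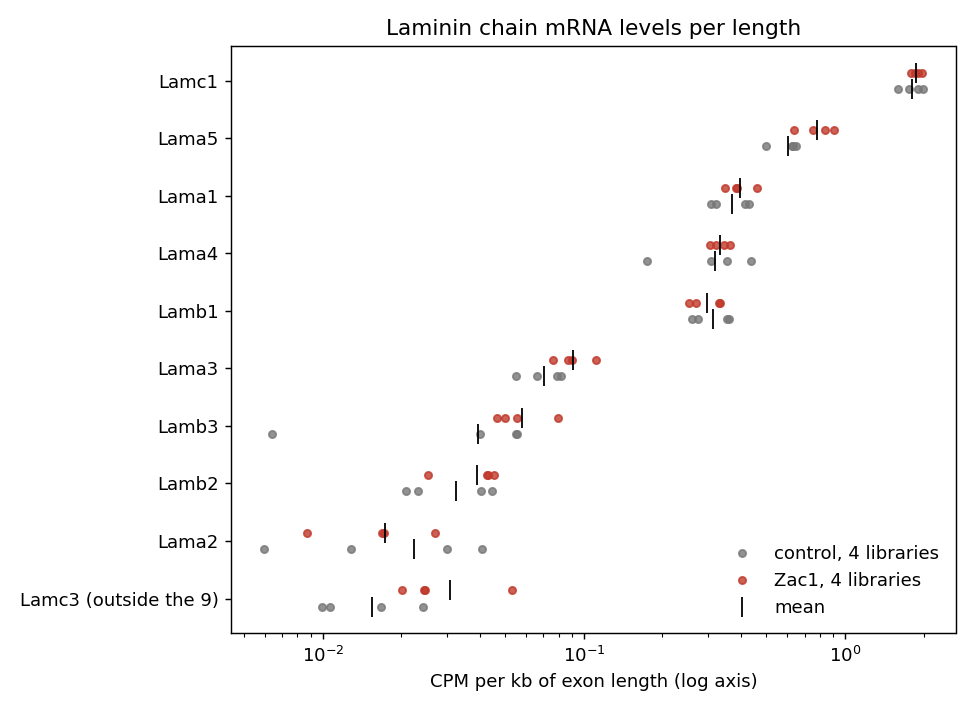
Level of each laminin chain gene in CPM per kb of exon length (log axis), with 1 point per library, grey for control and red for Zac1, and a bar at the mean of 4. Lamc1 is highest, Lama5 next, Lama1, Lama4 and Lamb1 lie together, and Lama3, Lamb3, Lamb2 and Lama2 are lower than these in the control libraries; Lamc3 is shown because some trimers need it.

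Summed by class and per length, the chains were unequal. The 5 α chains together had 1.38 ± 0.142 CPM per kb in the controls, the 3 β chains 0.384 ± 0.0826, and γ1 1.81 ± 0.171 (n = 4). Every laminin takes 1 chain of each class, and β mRNA was the scarcest class in all 4 control and all 4 Zac1 libraries. Lamc1 exceeded Lamb1 by a factor of 5.89 ± 0.880 in the controls and 6.47 ± 1.12 with Zac1. With coding length in place of exon length the control factor was 8.77, since Lamc1 has a long untranslated part. Lamb1 made up 82.1 ± 5.59% of β mRNA in the controls and 75.1 ± 5.45% with Zac1.

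Among the α chains, Lama5 took the largest share, 52.4, 42.7, 46.9 and 34.3% in control libraries 1, 2, 3 and 5, and 52.3, 48.3, 50.4 and 41.7% in the Zac1 libraries of the same numbers. In both groups the lowest share was in library 5. Lama1 took 26.5 ± 2.52% in the controls and 24.5 ± 3.81% with Zac1, and Lama4 22.6 ± 6.41% and 20.6 ± 2.32%. Lama3 and Lama2 made up the rest, at 5.20 ± 1.39% and 1.54 ± 0.995% in the controls. The groups overlapped in each of these shares.

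The mRNAs needed for 3 laminins were present throughout. Of 13 trimers considered, all known from tissues, 10 consist of the 9 chains alone. None of the 13 holds Lamb3, the partner of Lama3 in skin, and no γ chain other than γ1 and γ3 was considered. A chain was counted as present where each library of a group had at least 1 CPM, a minimum set for this purpose. Lama1, Lama4, Lama5, Lamb1 and Lamc1 met it in the control group, which covers laminin-111, laminin-411 and laminin-511. The same 5 chains met it in the Zac1 group, so the list of 3 trimers was the same. In each of the 3, Lamb1 had the lowest mean level per length, though in the controls its range overlapped those of Lama4 and Lama1. For laminin-411 this rested on control library 5 in the control group. In control libraries 1, 2 and 3 Lama4 lay below Lamb1, at 0.174, 0.353 and 0.306 against 0.260, 0.360 and 0.355 CPM per kb. With Zac1, Lama4 was below Lamb1 in libraries 1 and 5 and above it in libraries 2 and 3. Lama4 only just met the minimum, at 1.05 CPM in control library 1.

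The count of trimers depends on that minimum. At 0.5 CPM Lama3 was added, and with it laminin-311. At 0.1 CPM Lamb2 was added as well and the count rose to 8 in each group, the exceptions being the 2 trimers with Lama2. At 5 CPM only Lama5 and Lamc1 remained and no trimer was covered. The other 3 trimers need the γ3 chain, whose gene Lamc3 lies outside the 9 but in the same table. Lamc3 had 0.0154 ± 0.00661 CPM per kb in the controls. At 0.1 CPM laminin-423 and laminin-523 were covered in the Zac1 group and not in the control group. That step rests on Lamc3, with 2 to 5 counts per control library and 5 to 11 per Zac1 library. The presence of mRNA does not show that a trimer is made.

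**Figure D2:**
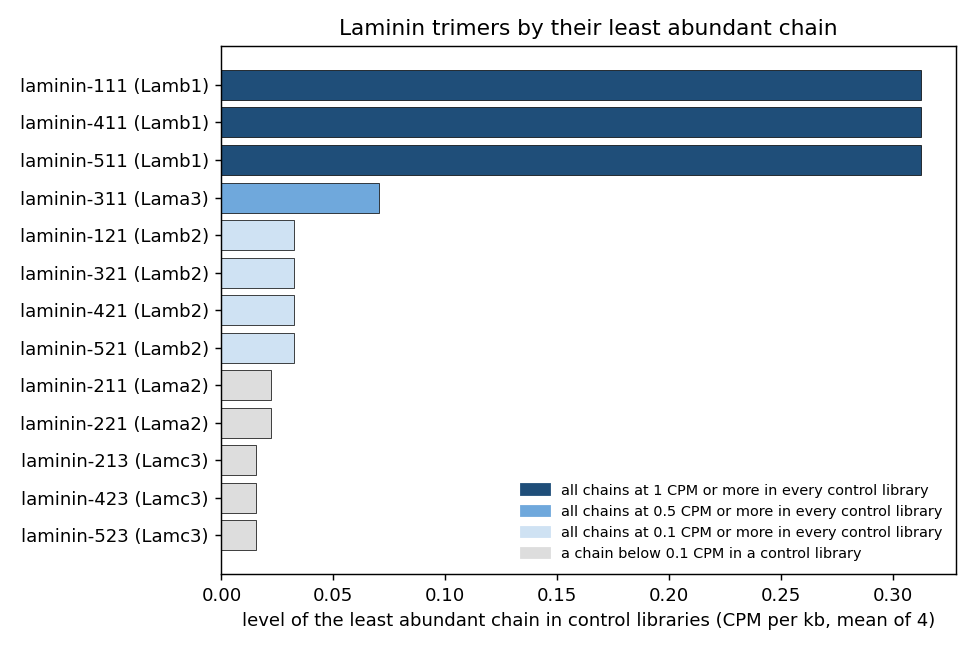
For each of 13 laminin trimers, the bar gives the mean level in the 4 control libraries of its least abundant chain (named in parentheses) in CPM per kb, and the shade the highest minimum that all its chains met in every control library. Laminin-111, laminin-411 and laminin-511 stand at 0.312, the mean level of Lamb1, and laminin-311 follows at 0.0704, the level of Lama3. Lama4 lay below Lamb1 in control libraries 1, 2 and 3, so the chain named for laminin-411 rests on control library 5.

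None of the tested laminin chains passed the test between the Zac1 and control groups, with estimated log2 differences from -0.08 to 0.38. Of the 9 chains, 6 had enough counts to be tested (Lama1, Lama3, Lama4, Lama5, Lamb1 and Lamc1), and 0 of the 6 were called by edgeR at an adjusted p of 0.05, where 2.18% of all 14331 tested genes were. DESeq2 and limma-voom also called 0. At an unadjusted p under 0.05 there was 1, Lama5, against 7.58% of all tested genes. The groups overlapped in each of the 9 chains, while 5.79% of all tested genes had groups that did not. At these shares, none of these counts sets the chains apart from other genes. The median log2 difference (Zac1 minus control) of the 6 was 0.09, against -0.01 over all tested genes.

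Lama5, the α chain of the laminin with the widest distribution in adult tissue, showed the lowest p. It stood at 7.14, 7.42, 7.22 and 5.66 CPM in control libraries 1, 2, 3 and 5, and at 10.3, 8.57, 9.54 and 7.24 CPM in the Zac1 libraries of the same numbers. Libraries 1, 2 and 3 with Zac1 lay above every control library, but Zac1 library 5 lay between control libraries 3 and 2. Library 5 was the lowest of its group on both sides. The difference was 1.30-fold (log2 0.38 ± 0.12, SE; 95% interval 0.12 to 0.64; edgeR adjusted p = 0.231). On log2 CPM the exact permutation test, two-sided, gave p = 0.0571, where the smallest possible is 0.0286. Without Zac1 library 5 Lama5 was called (log2 0.47, edgeR adjusted p = 0.0255, with 2.5% of all genes called), and also without both libraries numbered 5 (log2 0.39, edgeR adjusted p = 0.0496, with 2.3% called). In the other leave-one-out fits the edgeR adjusted p was 0.241 to 0.508. The difference was smallest without Zac1 library 1 (log2 0.298, edgeR adjusted p = 0.508) and without control library 5 (log2 0.304, edgeR adjusted p = 0.401).

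Lama3 had a difference of the same size on far fewer reads. Its level was 0.878, 0.711, 0.848 and 0.589 CPM in control libraries 1, 2, 3 and 5, and 1.20, 0.936, 0.819 and 0.970 CPM with Zac1. Only Zac1 library 3 lay within the control range. The log2 difference was 0.37 ± 0.22 (SE), with a 95% interval of -0.10 to 0.84 (edgeR adjusted p = 0.806).

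The other chains differed less. Lamc1 gave the most precise value: 12.2, 13.4, 15.1 and 14.6 CPM in control libraries 1, 2, 3 and 5 against 13.6, 14.5, 15.0 and 14.1 CPM with Zac1. All 4 Zac1 values lay inside the control range. The log2 difference was 0.05 ± 0.08 (SE), with a 95% interval of 0.919 to 1.17 as a fold (edgeR adjusted p = 0.964). Lamb1, the common β1 chain, had 1.52, 2.10, 2.07 and 1.60 CPM in the controls and 1.94, 1.48, 1.57 and 1.92 CPM with Zac1. High and low values of Lamb1 were mixed in both groups. Its log2 difference was -0.08 ± 0.17 (SE), with a 95% interval of -0.45 to 0.29 (edgeR adjusted p = 0.977).

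Lama1 stood at 2.93, 3.95, 3.05 and 4.09 CPM in control libraries 1, 2, 3 and 5 and at 3.66, 3.32, 3.69 and 4.38 CPM with Zac1. The groups were interleaved, and the log2 difference was 0.11 ± 0.14 (SE; 95% interval -0.20 to 0.41; edgeR adjusted p = 0.962). Lama4 stood at 1.05, 2.13, 1.85 and 2.65 CPM in the controls and at 1.84, 2.18, 2.07 and 1.94 CPM with Zac1. The controls spanned the whole Zac1 range, and the log2 difference was 0.07 ± 0.22 (SE; 95% interval -0.40 to 0.54; edgeR adjusted p = 0.984). Its sign rests on control library 1, without which it was -0.13.

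The 3 chains removed by the filter on low counts had few reads in both groups. Lama2 had 29 counts over the 4 control libraries and 28 over the 4 Zac1 libraries, Lamb2 24 and 35, and Lamb3 27 and 48. The Zac1 libraries were deeper in total. Fitted without the filter, their log2 differences were -0.33 ± 0.53, 0.26 ± 0.46 and 0.55 ± 0.46 (SE), with edgeR adjusted p of 0.941, 0.953 and 0.886. The 95% intervals were -1.44 to 0.77, -0.69 to 1.22 and -0.41 to 1.5, so a log2 change of 1 in 1 direction was not excluded for any of the 3. Lamc3, which is not among the 9, had 12 counts in the controls and 28 with Zac1.

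**Figure D3:**
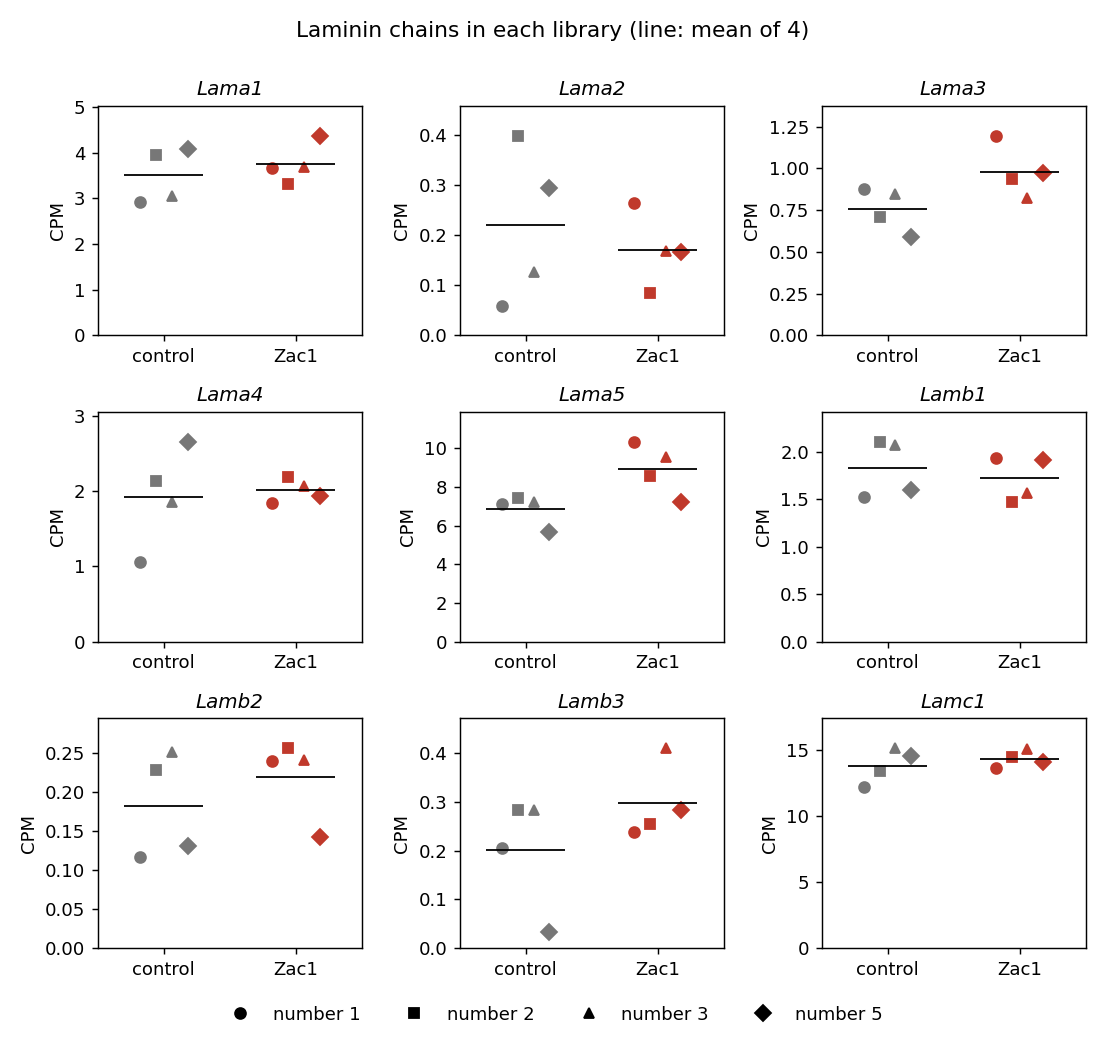
CPM of each of the 9 chains in every library, in a panel of its own with an axis from 0, grey for control and red for Zac1, with marker shapes for the library number and a line at the mean of 4. In the Lama5 panel 3 of the Zac1 libraries lie above all controls, and the libraries numbered 5 are the lowest of each group at 5.66 and 7.24 CPM.

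The promoters of Lama5 and Lamb1 are shown because these partners in laminin-511 had the highest and the lowest estimate among the tested chains. RefSeq promoters were matched for 5 of the 9 chains (Lama2, Lama5, Lamb1, Lamb2 and Lamb3). The 250 bases before the transcript start are given 5′ to 3′ on the gene's strand, in the coordinates of build GRCm38.p6, not of mm9 to which the reads were aligned. Capitals mark the motif GGGGCC on either strand.
Lama5, chr2:180225860-180226109, minus strand: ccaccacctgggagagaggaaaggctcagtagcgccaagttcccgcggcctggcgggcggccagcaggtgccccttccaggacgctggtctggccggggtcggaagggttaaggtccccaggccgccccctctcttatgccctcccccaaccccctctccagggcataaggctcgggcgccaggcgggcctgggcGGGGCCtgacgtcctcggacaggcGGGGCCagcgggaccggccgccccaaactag
Lamb1, chr12:31265043-31265292, plus strand: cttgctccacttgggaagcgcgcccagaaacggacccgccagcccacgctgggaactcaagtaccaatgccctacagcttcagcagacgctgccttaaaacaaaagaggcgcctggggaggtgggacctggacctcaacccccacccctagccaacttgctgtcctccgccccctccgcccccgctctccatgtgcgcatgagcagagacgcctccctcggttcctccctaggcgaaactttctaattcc
GGGGCC is the inner part of a longer GC-rich site reported to be bound by Zac1. On both strands together, GGGGCC was found 2 times in the Lama5 window and 0 times in that of Lamb1. Among the other matched chains it was found 0 times for Lama2, 0 times for Lamb2, and 0 and 1 times in the windows of Lamb3. It occurs in 22.0% of the 32851 promoter windows of this length, so its presence sets no gene apart. The Lama5 window is also richer in G and C, at 72.4% against 62.0% for Lamb1. A match is a description of letters and does not show binding.

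Several receptors for laminin were expressed at higher levels per length than any of the chains. Itgb1, the β subunit of most laminin-binding integrins, had 115 ± 4.25 CPM per kb in the controls (n = 4). Its partners Itga6 and Itga3, which make the main receptors for laminins with α5, had 10.6 ± 0.707 and 6.24 ± 0.499 CPM per kb. Dag1, the gene for dystroglycan, had 9.92 ± 0.292 and Bcam, an α5-binding receptor of the immunoglobulin family, 4.67 ± 0.617 CPM per kb. Each of these exceeded Lamc1 in level. The other 5 of the 8 integrin chains lay below every one of Lamc1, Lama5, Lama1, Lama4 and Lamb1 in mean level, with Itga9 highest at 0.186 ± 0.0118 and Itgb4 lowest at 0.0620 ± 0.0124 CPM per kb.

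No integrin chain of a laminin receptor passed the test. Of 8 tested 0 were called by edgeR, DESeq2 or limma-voom, and 0 at an unadjusted p under 0.05. With edgeR calling 2.18% of all tested genes, and 7.58% at an unadjusted p under 0.05, 0 of 8 does not set these genes apart. The log2 differences of Itgb1, Itga6 and Itga3 were -0.04 ± 0.05, 0.05 ± 0.06 and 0.04 ± 0.07 (SE). The lowest p in this list were those of Itga2 (-0.49 ± 0.27, edgeR adjusted p = 0.776) and Itga7 (0.43 ± 0.33, edgeR adjusted p = 0.906), both under 2 CPM on average in the controls. Over the leave-one-out fits the Itga7 difference was 0.04 to 0.71, lowest without Zac1 library 1. Of 9 other receptors and hemidesmosome partners 1 was called, Col17a1, a transmembrane collagen of hemidesmosomes. It rose from 0.0514 ± 0.0488 to 1.25 ± 0.151 CPM (log2 4.46 ± 0.40, SE; edgeR adjusted p = 1.07e-05), and only the Zac1 libraries carried it past the filter on low counts. It had 7 counts over the 4 control libraries and 199 with Zac1. Its log2 difference was 4.11 to 5.18 over the leave-one-out fits, highest without control library 2. The syndecans Sdc4 (0.17 ± 0.12) and Sdc1 (0.08 ± 0.06) followed without a call. Of 12 tested enzymes that build the laminin-binding glycan of dystroglycan 0 were called by edgeR, DESeq2 or limma-voom. At an unadjusted p under 0.05 there was 1, B4gat1 (listed as B3gnt1, log2 -0.15 ± 0.07, edgeR adjusted p = 0.657), followed by Pomt1 (-0.10 ± 0.05, edgeR adjusted p = 0.754).

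Among basement membrane proteins that assemble with laminin, 15 of 27 were tested and 3 were called, where 2.18% of all tested genes were. This list was chosen with earlier results of these data known, and Col4a2 passed the filter only through its Zac1 libraries. Whether the list differs from other genes was therefore not tested. Col7a1 of anchoring fibrils rose by 1.40 ± 0.15 and Npnt, an integrin ligand, by 0.90 ± 0.16 on the log2 scale. Col4a2, a chain of the collagen IV network, rose from 0.0692 ± 0.0486 to 0.617 ± 0.218 CPM (log2 3.11 ± 0.49, SE; edgeR adjusted p = 0.00155). It had 9 counts over the 4 control libraries and 99 with Zac1, and only the Zac1 libraries carried it past the filter on low counts, so it could be called in no other direction. Col4a1, another chain of that network, had 8.89 ± 1.18 CPM in the controls and 8.27 ± 0.572 CPM with Zac1. It was not called (log2 -0.11 ± 0.10, edgeR adjusted p = 0.943). Hspg2, which codes for the proteoglycan perlecan, had 0.276 ± 0.180 CPM in the controls and 0.740 ± 0.141 CPM with Zac1. The groups did not overlap, as in 5.79% of all tested genes, but Hspg2 was not called (log2 1.39 ± 0.36, edgeR adjusted p = 0.0727). Without control library 1 it was called (log2 1.91, edgeR adjusted p = 0.0112). Col18a1 followed at 0.64 ± 0.26 (edgeR adjusted p = 0.494). Hspg2 and Egflam, which was not called either (log2 -0.39, edgeR adjusted p = 0.94), were below the limit of the filter in at least 1 control library. The controls alone would thus not have carried Hspg2 past the filter, and its lowest Zac1 library had 0.615 CPM.

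The nidogens, which tie the γ1 chain to collagen IV, had few counts. Nid1 had 2 counts over the 4 control libraries and 35 over the 4 Zac1 libraries, with 18 of them in 1 library. Nid2 had 8 and 13, and neither gene was tested. Agrn, the proteoglycan agrin that binds the laminin coiled coil, was better expressed, at 22.9 ± 0.848 CPM in the controls and 26.0 ± 3.32 CPM with Zac1 (log2 0.18 ± 0.08, SE; edgeR adjusted p = 0.67). Of 6 netrin genes, whose proteins share the laminin N-terminal domain, 1 was tested. Ntn1 gave a log2 difference of 0.20 ± 0.09 (SE; edgeR adjusted p = 0.563). Ntn4, a netrin that binds the γ1 short arm, had 0 counts in the controls and 8 with Zac1, with 5 of them in 1 library.

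**Figure D4:**
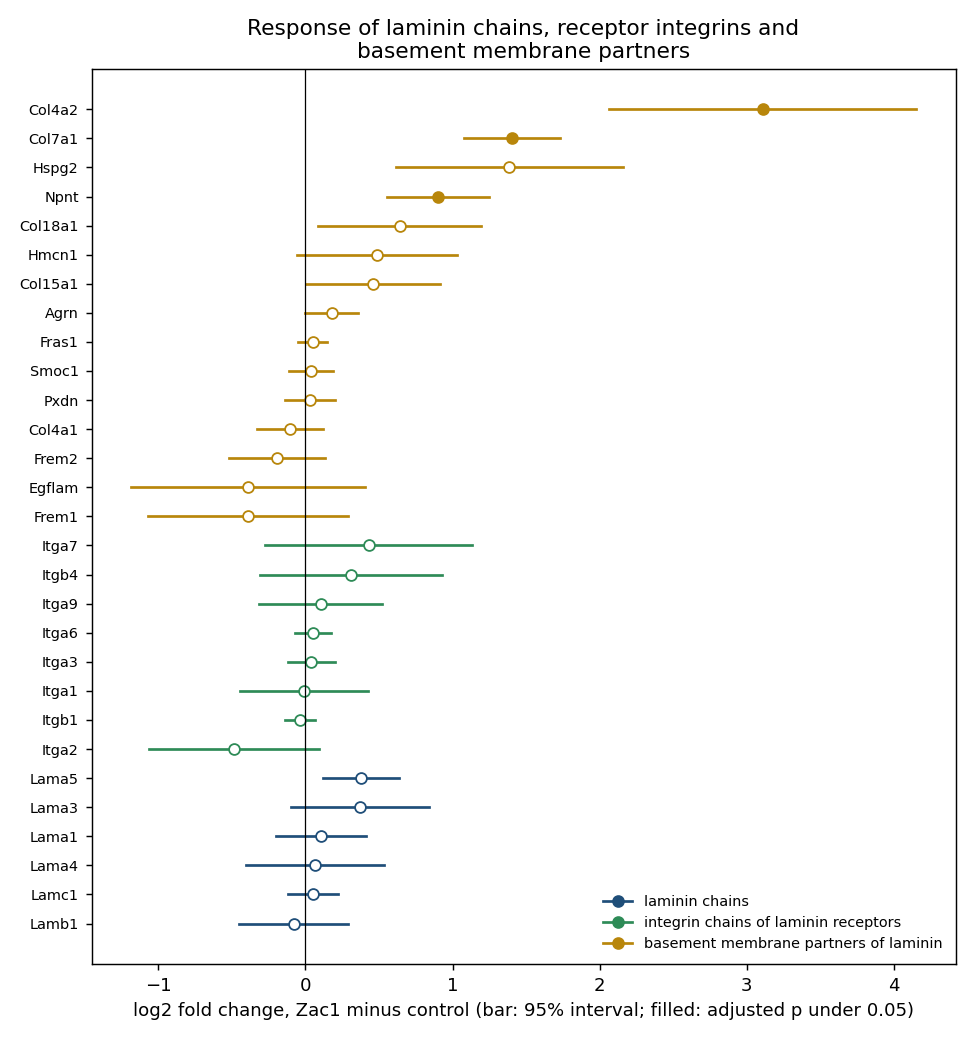
Log2 fold change (Zac1 minus control) with its 95% interval for the tested laminin chains (blue), integrin chains of laminin receptors (green) and basement membrane partners (gold), filled where the edgeR adjusted p is under 0.05. Filled points are Col4a2, Col7a1 and Npnt; all laminin chains are open and lie between -0.08 and 0.38.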

How the data were processed

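The authors deposited 1 table of raw counts per gene for the 8 libraries. Per the submitters' processing notes, the build was mm9, and TopHat2 2.1.1, HTSeq 0.6.1p1, Bowtie2 2.2.8, FastQC and bcl2fastq 2.17 were used. Per the labels' protocols, the libraries were stranded. Annotation and counting settings: not given in the sources used here.

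All genes were tested with edgeR 4.0.16 in R 4.3.3 (filterByExpr, TMM, robust quasi-likelihood F test, Benjamini-Hochberg over 14331 genes, threshold 0.05), and the steps were tested on simulated data. Each standard error is the log2 change divided by the root of F. DESeq2 1.42.0, limma 3.58.1 and the settings in the closing section were alternatives. The series' design text calls the libraries biological replicates.

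CPM uses TMM-scaled totals. Exon and coding lengths are GENCODE M21 protein-coding basic transcripts (GRCm38), matched for 99.0% of tested genes. In the shallowest library 3 counts equal 0.0982 CPM, which covers counting error only.

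The chains and lists were chosen with earlier results of these data known. Genes named are all 9 chains, Plagl1, and each list's called members with the 2 next smallest p. Receptors and partners besides these (Itgb1, Itga6, Itga3, Dag1, Bcam, Col4a1, Agrn, Nid1, Nid2, Ntn4) and Lamc3 were named for their role after their values were seen. A rule for genes most like a called chain named none, since no chain was called. Some items are not reported here.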

Additional observations from a re-analysis of the deposited data

Results flagged for a closer look

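In 20 groups of 4 libraries (10 laminin genes in each group), 3 held a library far from the other 3 by Dixon's criterion, which chance meets in about 1 of 20 groups. Lama5 was at 5.66 CPM in control library 5, where the others had 7.14 to 7.42 CPM. Lamb2 was at 0.142 CPM in Zac1 library 5, with the others at 0.239 to 0.255 CPM, which is 6 counts against 9 or 10. Lamc3 was at 0.312 CPM in Zac1 library 2, with the others at 0.118 to 0.145 CPM, which is 11 counts against 5 or 6.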

How the results depend on the processing

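For the 6 tested chains, 90 of 95 values under 16 alternatives kept their direction and their side of the threshold. The 3 that crossed it were those of Lama5, without Zac1 library 5, without both libraries numbered 5 and with the replicate block, each of which gave 1 called chain in place of 0 (range 0 to 1 over the leave-one-out fits). The 2 reversals were Lama4 without control library 1 and Lamb1 without control library 2, with leave-one-out ranges of -0.13 to 0.26 and -0.15 to 0.0042. Hspg2 was called without a filter (edgeR adjusted p = 0.0321), without control library 1 and with the block (0.0111). Col17a1, Col4a2, Col7a1 and Npnt were called under every alternative run on them. Over all genes 313 of 14331 were called, and 262 to 362 without any 1 library. Where the filter was a mean of 50 counts, 99 of 12219 were called, a lower share as well as a lower count.

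The fit with a replicate block called 628 genes (4.38%), Lama5 among them (log2 0.38 ± 0.09, edgeR adjusted p = 0.0071). Libraries of the same number deviated together at r = 0.29, 0.05, 0.14 and 0.29 (numbers 1, 2, 3 and 5), over genes. Each Zac1 library correlated best with the control of its own number, library 2 only narrowly (0.05 against 0.03 with control library 5). Control library 2, however, correlated best with Zac1 library 3 (0.08). Since number 2 did not pass 0.1, the numbers were not taken as pairs, and the labels do not say that they are. The call of Lama5 depends on this choice.

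Lamc1 exceeded Lamb1 per length by a factor of 5.53 to 6.23 without any 1 control library and by 8.77 with coding length. Without control library 5 Lamb1 stood above Lama4 in level per length, and the order of the 10 genes by coding length was that by exon length. The count of trimers, 3 in either group, was 4 at 0.5 CPM, 8 at 0.1 CPM and 0 at 5 CPM. Depth limits the chains with fewer than 50 counts per group.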
